A study of Mus musculus with 6 samples.

Results

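Secretagogin, listed as SCGN on the array, and 8 further EF-hand calcium sensors, CALB1, CALB2, PVALB, CALM2, CALM3, NCALD, HPCAL1 and NCS1, were examined in a murine intestinal L-cell line. Every probe whose symbol, written in upper case, was one of these 9 names was taken. A total of 14 of the 45281 probes, for 8 of the 30854 symbols on the array, met this rule. NCS1 had no probe under that name, but 3 probes carried Freq, an older symbol of Ncs1, and 1 probe carried an older symbol of Calm2. These 4 probes are given beside the others and are not counted among the 14.

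The cells were mGLUTag, an immortalized line used as a model of the L-cell, the enteroendocrine cell that makes glucagon-like peptide-1 from proglucagon. All cultures were held in low serum, pulsed with forskolin, which raises cAMP and sets the cells' clocks to a common phase, and then returned to growth medium. RNA was collected 4 h (n = 3) and 16 h (n = 3) later, times at which the study places the highest and lowest levels of Arntl, which encodes the clock factor BMAL1. No genotype or drug separated the groups, an unsynchronized control was not analysed here, and both times follow the same forskolin pulse. The sources do not say whether the 3 samples per time point came from separate cultures, so the p-values measure only the spread between these samples.

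EF-hand proteins bind calcium in a helix-loop-helix fold. Sensors such as calmodulin, secretagogin, neurocalcin delta and neuronal calcium sensor 1 change shape on binding and pass the signal to partner proteins, while parvalbumin and the calbindins are known largely as calcium buffers. Secretagogin is abundant in neuroendocrine cells, where it binds SNARE proteins of the exocytosis machinery, and calmodulin is present in nearly every cell, activating kinases, calcineurin and phosphodiesterases.

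Intensities are given as deposited, in arbitrary units with the background already subtracted, and a change is the 4 h mean minus the 16 h mean of normalized log2 intensity. A probe was taken as above noise where its intensity exceeded the 99th percentile of the sizes of that array's values below 0, which was between 9.2 and 14 units. It was taken as detected where this held on 3 or more arrays. The 4 h arrays were brighter as a whole: of the 14941 probes above noise on all 6 arrays, 98.2% were brighter on average at 4 h, and the median log2 ratio was 0.55. The quantile normalization used for the changes removes any such shared difference. The 3 probes for 18S ribosomal RNA were high on 4 h replicates 1 and 3 and 16 h replicate 1 and low on the other arrays, so this separation is given beside the detected sensor probes that differed by over 0.1 log2 units in the same direction between these arrays at both time points. Within a time point, each such difference sets 2 arrays against 1. Arntl had 140.7, 98.7 and 142.5 units at 4 h and 42.5, 50.3 and 37.8 units at 16 h, and its change was 0.52 (SE 0.069, limma adjusted p = 0.138). The study's own limma analysis called Arntl significantly higher at 4 h, with a larger change than here. Gcg, the proglucagon gene, was between 11298 and 21126 units, and 8 of 10 L-cell markers were detected, while Pcsk1 was above noise on 1 array. The markers of enterocytes (0 of 4 with a probe) and immune cells (0 of 3) were not detected, and 1 of 5 fibroblast markers (Col1a1, 17.2 to 42.0 units), 1 of 3 neuron markers with a probe (Gad1) and 2 of 4 goblet cell markers (Tff3 and Spink4) were.

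Clear signal was obtained for secretagogin, calmodulin and neurocalcin delta, with dim signal for hippocalcin-like 1 and parvalbumin and none for the calbindins. Under the listed symbols, at least 1 probe was detected for 6 of the 9 genes: Scgn, Calm2, Calm3, Ncald, Hpcal1 and Pvalb. Through its older symbol Ncs1 also met the rule, with ILMN_1244929 above noise on 3 arrays. Of the 14 probes, 10 were above noise on all 6 arrays (71.4%, beside 33.0% of all probes), 3 were above it on none, and 1 was above it on a single array. No difference between 4 h and 16 h passed the test: 0 of 14 passed an adjusted p of 0.05 in limma, beside 0.00883% of all 45281 probes, and 0 of 10 had an unadjusted limma p under 0.05, beside 10.3% of the 17366 detected probes. No detected sensor probe had all normalized values higher at 4 h (6.1% of detected probes did) or all lower (5.33% did).

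**Figure D1:**
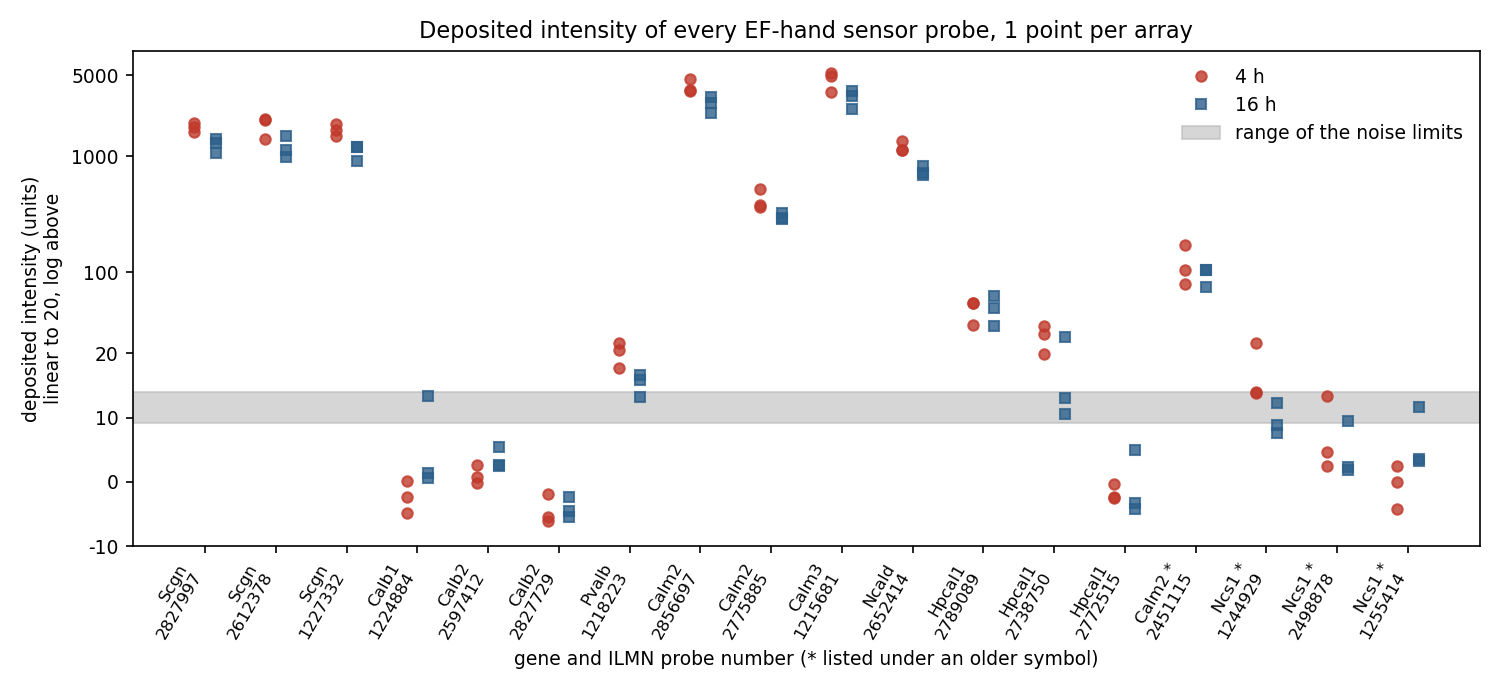
Deposited intensity (units, linear to 20 and logarithmic above) of all 14 probes and of the 4 probes under older symbols, with 1 point per array (circles 4 h, squares 16 h) and a grey band from the lowest to the highest noise limit. Scgn, Calm2, Calm3 and Ncald lie far above the band on every array, and Hpcal1 and Pvalb lie nearer to it, with 1 Hpcal1 probe below it. At 16 h, points of Pvalb (13.2 units) and Hpcal1 ILMN_2738750 (13.1 and 10.5 units) lie within the band, above the limit of their own array. The Calb1 and Calb2 probes lie within or below it.

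Secretagogin was read by 3 probes, all well above noise. The first, ILMN_2827997, taken to represent the gene because its mean normalized log2 intensity was the highest, had 1918.7, 1602.4 and 1777.7 units at 4 h and 1284.4, 1403.7 and 1056.7 units at 16 h. All 4 h arrays were above all 16 h arrays, at 115 to 146 times the noise limit of the array. The means were 1766 ± 158 (SD, n = 3) and 1248 ± 176 (SD, n = 3), a log2 ratio of 0.50, close to the 0.55 of all probes above noise. After normalization the log2 values were 10.64, 10.64 and 10.57 for the 4 h arrays and 10.63, 10.67 and 10.55 for the 16 h arrays. The groups overlapped fully, and the change was -0.00034 (SE 0.067, 95% confidence interval -0.15 to 0.15, limma adjusted p = 0.9997). The interval corresponds to a ratio of 4 h to 16 h between 0.900 and 1.11.

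The second Scgn probe, ILMN_2612378, had 2075.7, 1403.7 and 2038.9 units at 4 h and 1492, 1138.6 and 988 units at 16 h. Here the time points overlapped before normalization, as 4 h replicate 2 was dimmer than 16 h replicate 1. Its change was 0.10 (SE 0.13, 95% confidence interval -0.19 to 0.39, limma adjusted p = 0.970). The third, ILMN_1227332, had 1686.4, 1498.5 and 1904.3 units at 4 h and 1208.9, 1191.7 and 907.1 units at 16 h, with every 4 h array the brighter. Its change was 0.11 (SE 0.081, 95% confidence interval -0.074 to 0.29, limma adjusted p = 0.953), and the normalized values of the time points overlapped.

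The 3 Scgn probes gave no difference that passed the test, but they did not follow each other from array to array. Over the 6 arrays, the normalized log2 intensity of ILMN_2827997 had a Pearson correlation of -0.18 with ILMN_2612378 and of -0.0018 with ILMN_1227332, all within a range under 0.5 log2 units per probe. The second probe moved with 18S ribosomal RNA. It was higher on the arrays with high 18S signal by 0.31 among the 4 h arrays and by 0.39 among the 16 h arrays, where the representative probe differed by -0.033 and 0.016. The part of 18S RNA in these values was not tested. Within the arrays of high 18S signal the change of ILMN_2612378 was -0.05, and within those of low signal it was 0.02. The within-array log2 difference between probes did not separate the time points for any pair, with shifts of -0.10 (exact permutation p = 0.6), -0.11 (exact permutation p = 0.3) and -0.0082 (exact permutation p = 1), where 3 against 3 arrays cannot give a p below 0.1.

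**Figure D2:**
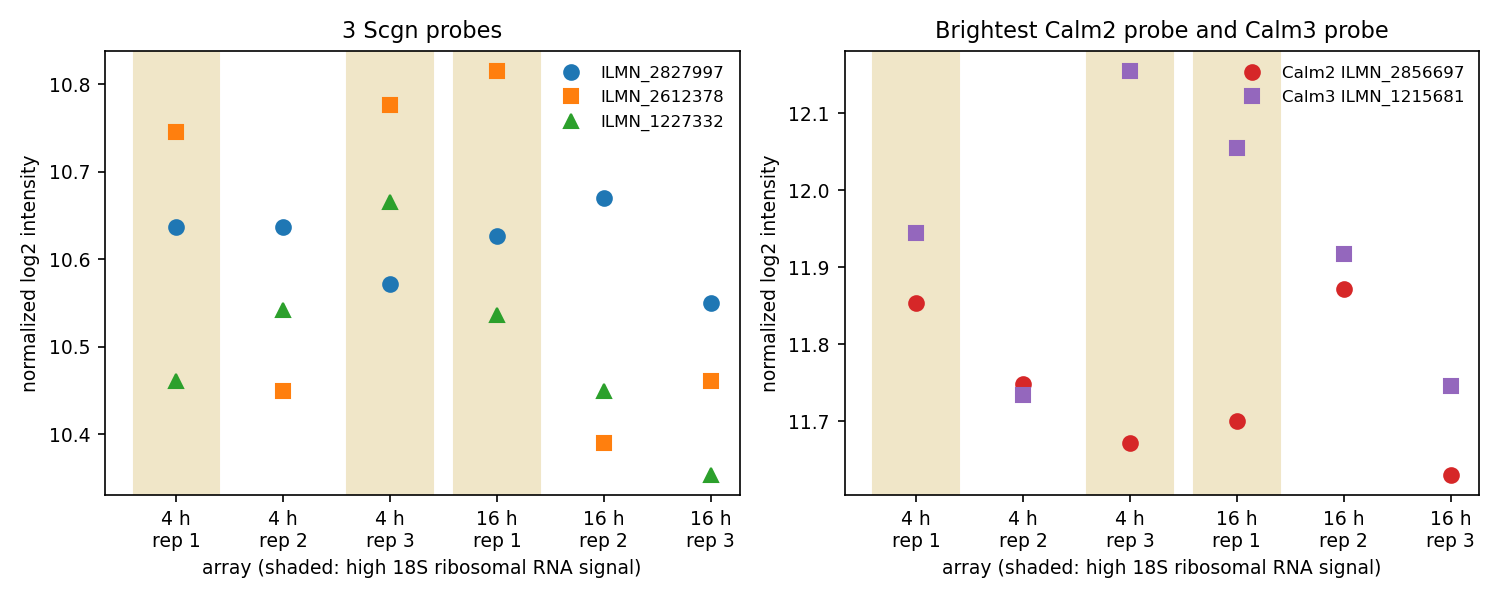
Normalized log2 intensity on each array of the 3 Scgn probes (left) and of the brightest Calm2 probe and the Calm3 probe (right), with the arrays of high 18S ribosomal RNA signal shaded. Scgn ILMN_2612378 and Calm3 are high on the shaded arrays, while Scgn ILMN_2827997 and Calm2 do not follow the shading.

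Calm2 and Calm3 both encode calmodulin and specify the same protein. The brighter of the Calm2 probes, ILMN_2856697, had 4580.8, 3623.9 and 3695.9 units at 4 h and 2861.6, 3228.3 and 2369.4 units at 16 h. All 4 h arrays were above all 16 h arrays on this scale, and the normalized values overlapped, with a change of 0.02 (SE 0.085, 95% confidence interval -0.17 to 0.22, limma adjusted p = 0.9902). The other, ILMN_2775885, had 522.8, 378.9 and 362.5 units at 4 h and 287.6, 324.1 and 290.7 units at 16 h, again with every 4 h array the brighter. Its change was -0.06 (SE 0.12, 95% confidence interval -0.33 to 0.20, limma adjusted p = 0.981), and the arrays of high 18S signal differed from the others by -0.13 among the 4 h arrays and -0.17 among the 16 h arrays, a part that was not tested. At 4 h the arrays of high 18S signal lay on both sides of the other, at 8.87 and 8.43 beside 8.78. The within-array difference between these probes shifted by 0.09 from 16 h to 4 h (exact permutation p = 0.6). The probe under the older Calm2 symbol, ILMN_2451115, had 169.6, 103.7 and 79.5 units at 4 h and 103.6, 74.9 and 103.9 units at 16 h, so its time points overlapped on both scales, and its change was -0.19 (SE 0.16, limma adjusted p = 0.959).

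Calm3 had 1 probe, ILMN_1215681, with 4891.4, 3601.6 and 5195.1 units at 4 h and 3628.6, 3322.8 and 2552.5 units at 16 h. The dimmest 4 h array, replicate 2, was just below the brightest 16 h array, replicate 1. The change was 0.04 (SE 0.12, 95% confidence interval -0.23 to 0.31, limma adjusted p = 0.988). Like the second Scgn probe, it was higher on the arrays of high 18S signal, by 0.32 among the 4 h arrays and 0.22 among the 16 h arrays, and the part of 18S RNA in this was not tested. Within the arrays of high and of low 18S signal the Calm3 change was below 0, at -0.0057 and -0.098. The letters of the probes were not used here, so which transcripts of these related genes a probe can also bind was not examined.

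Neurocalcin delta, a myristoylated sensor of the visinin-like family, showed the largest change above 0 among the detected sensor probes, though it did not pass the test. The Ncald probe, ILMN_2652414, had 1343, 1121.7 and 1123.4 units at 4 h and 710.6, 822.7 and 691.4 units at 16 h. The lowest 4 h array was well above the highest 16 h array, and the log2 ratio of the means was 0.69, beside 0.55 for all probes above noise. After normalization, 10.14, 10.15 and 9.91 at 4 h stood against 9.81, 9.95 and 9.99 at 16 h. Replicate 3 at 4 h then fell among the 16 h arrays, and the change was 0.15 (SE 0.088, 95% confidence interval -0.050 to 0.35, limma adjusted p = 0.937). The arrays of high 18S signal differed from the others by -0.12 among the 4 h arrays and -0.16 among the 16 h arrays, and the change was 0.21 within the arrays of high signal and 0.18 within those of low signal. The -0.12 came from 4 h replicate 3 alone, as replicate 1 (high 18S) and replicate 2 (low 18S) were nearly equal. Scaling each array by its median gave a change of 0.56 that passed the test (limma adjusted p = 0.0379), and no normalization between arrays gave 0.65 (limma adjusted p = 0.0329). Under these settings the median of all probes above noise on all 6 arrays was itself 0.30 and 0.39.

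Hippocalcin-like 1, another member of the visinin-like family, was dim and its probes differed. ILMN_2789089 had 54.6, 53.6 and 35 units at 4 h and 34.2, 61.8 and 49.1 units at 16 h, from 2.87 to 5.89 times the noise limit. It was the only detected sensor probe whose mean intensity was not higher at 4 h. Its change was -0.26 (SE 0.13, 95% confidence interval -0.56 to 0.043, limma adjusted p = 0.920), the lowest of the 10. The arrays of high 18S signal were the lower ones here, by -0.31 among the 4 h arrays and -0.41 among the 16 h arrays, and the part of 18S RNA was again not tested. Within the arrays of high and of low 18S signal the change was -0.09 and -0.19. It was -0.59 without background correction and -0.37 with an offset of 16, but -0.10 as the mean of the detected Hpcal1 probes, -0.053 with median scaling and 0.036 without normalization between arrays. It was from -0.40 (without 16 h replicate 1) to -0.16 (without 4 h replicate 3) when each array was left out, none past the test. ILMN_2738750 had 29, 19.8 and 34.4 units at 4 h and 13.1, 27.5 and 10.5 units at 16 h, with overlapping time points and a change of 0.05 (SE 0.095, limma adjusted p = 0.981). The within-array difference between these probes shifted by -0.31 (exact permutation p = 0.2). The third Hpcal1 probe, ILMN_2772515, was above noise on no array, with values from -4.2 to 4.9 units.

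Among the buffers, parvalbumin was near the noise limit and the calbindins were not detected. The Pvalb probe, ILMN_1218223, had 21.1, 24.2 and 17.7 units at 4 h and 13.2, 15.9 and 16.6 units at 16 h, between 1.35 and 2.09 times the noise limit. The 4 h arrays were all above the 16 h arrays before normalization and overlapped with them after it, and the change was -0.0094 (SE 0.080, 95% confidence interval -0.19 to 0.17, limma adjusted p = 0.997). The normalized values were lower on all 3 arrays of high 18S signal than on the others, by -0.19 among the 4 h arrays and -0.11 among the 16 h arrays, which was not tested. Within the arrays of high and of low 18S signal the change was 0.0033 and 0.08. For a probe this dim the background correction shrinks any change. The Calb1 probe, ILMN_1224884, had -4.8, 0.2 and -2.3 units at 4 h and 13.3, 0.6 and 1.4 units at 16 h, so that 16 h replicate 1 alone was above noise. The Calb2 probes lay between -6.0 and 5.4 units and were above noise on no array. For these genes a signal was not detectable, which does not show that the transcripts are absent.

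Neuronal calcium sensor 1 was read only through the older symbol. Its brightest probe, ILMN_1244929, had 14, 13.8 and 24.4 units at 4 h and 8.8, 12.3 and 7.6 units at 16 h. It was above noise on 2 arrays at 4 h and 1 at 16 h, which meets the rule for detection. Its change was 0.07 (SE 0.073, limma adjusted p = 0.962). The others, ILMN_2498878 and ILMN_1255414, were above noise on 2 arrays and 1 array.

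**Figure D3:**
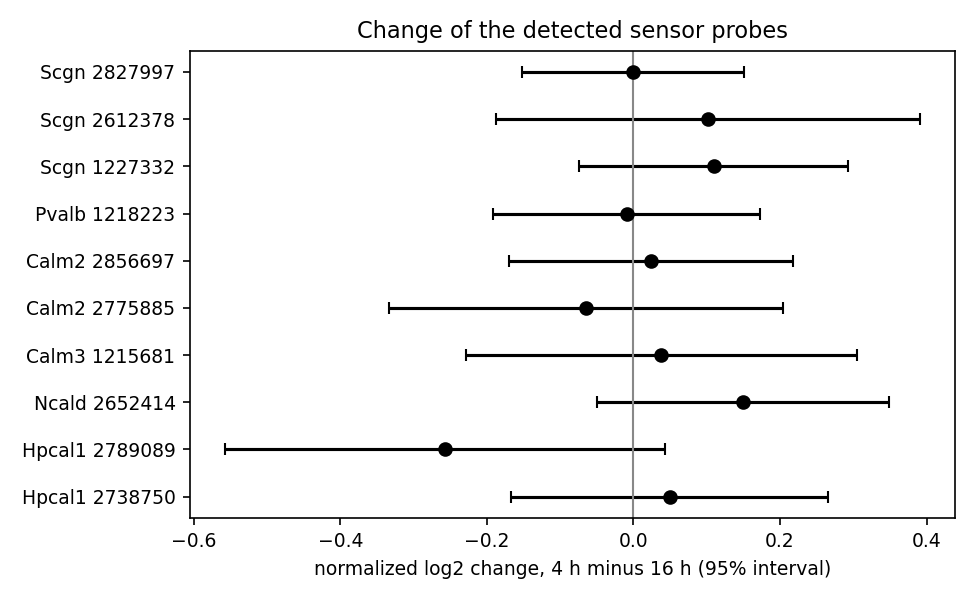
Change in normalized log2 intensity, 4 h minus 16 h, of the 10 sensor probes detected under the listed symbols, with points for the limma estimate and bars for its 95% confidence interval (3 arrays per time point). Every interval includes 0, with Ncald the highest at 0.15 and Hpcal1 ILMN_2789089 the lowest at -0.26.

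To ask whether any sensor changed differently from secretagogin, the normalized log2 intensity of the representative Scgn probe was subtracted within each array, so that a factor shared by all probes of an array cancels. Unlike such a factor, the background correction and normalization act differently on dim and bright probes, and the ratios of the dim genes moved with them. The difference for Ncald was -0.50, -0.49 and -0.66 at 4 h and -0.81, -0.72 and -0.56 at 16 h. Replicates 1 and 2 at 4 h were above every 16 h array and replicate 3 was not, and the shift was 0.15 (exact permutation p = 0.2, 0.5 after Benjamini-Hochberg adjustment over the 5 genes). For Hpcal1 the difference was -3.98, -3.75 and -4.06 at 4 h and -3.96, -3.59 and -3.48 at 16 h, a shift of -0.26 (exact permutation p = 0.2, adjusted 0.5). Without normalization between arrays this shift was -0.45 (exact permutation p = 0.1, the smallest possible) and without background correction it was -0.59 (exact permutation p = 0.2). For the other genes the shifts were 0.02 for Calm2 (exact permutation p = 0.5), 0.04 for Calm3 (exact permutation p = 0.8) and -0.0091 for Pvalb (exact permutation p = 0.9), the last becoming -0.33 (exact permutation p = 0.1) without normalization between arrays. All tests were two-sided, and with 3 against 3 arrays the smallest possible p of 0.1 cannot reach 0.05. No shift passed the test, and equal change was not shown either.

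Of the representative probes, 3 had a change above 0 and 3 below it, with a median of 0.01 beside 0.00015 over the 11735 detected genes. The result depended on how arrays were brought to a common scale. With cyclic loess, which aligns arrays as quantile normalization does, the changes were close to those above. With median scaling or none, Scgn, Calm2, Calm3 and Ncald lay above the shared shift and Pvalb and Hpcal1 lay below it, and the Scgn change was 0.40 (limma adjusted p = 0.0833) and 0.49 (limma adjusted p = 0.0550). Without normalization the third Scgn probe, ILMN_1227332, was called as well, at 0.60 (limma adjusted p = 0.0479). The place of the bright probes beside the shared shift was not the same in the deposited intensities. There the log2 ratios of the means were 0.50 for Scgn, 0.49 for Calm2 and 0.53 for Calm3, below the shared 0.55. That of Ncald, 0.69, was above it, and those of Pvalb (0.46) and Hpcal1 (-0.019) were below it.

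**Figure D4:**
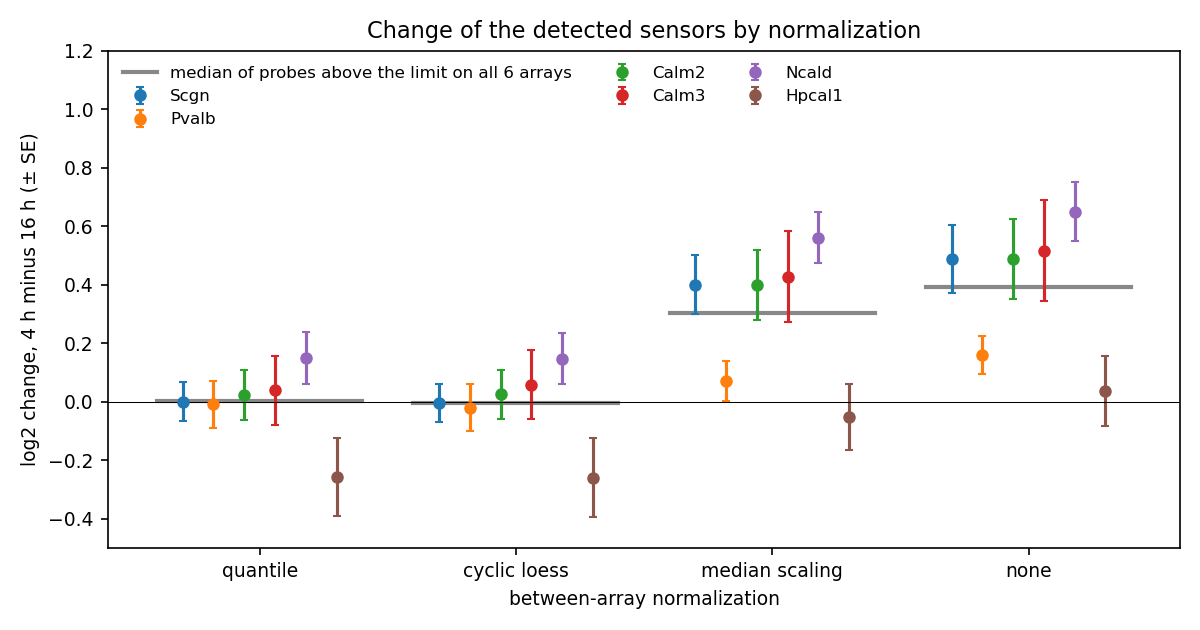
Log2 change, 4 h minus 16 h, with its SE, of 1 probe for each of the 6 sensors detected under the listed symbols, with 4 ways of normalizing between arrays and a grey line for the median of all probes above noise on all 6 arrays. The line rises from 0.0014 with quantile normalization to 0.30 with median scaling and 0.39 with none, and Scgn rises with it from -0.00034 to 0.40 and 0.49.

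The probes most like secretagogin over the arrays were sought among the 14938 probes of other genes above noise on all 6 arrays, by the Pearson correlation of normalized log2 intensity with ILMN_2827997. The closest were Foxo3 (0.975), Ptrh2 (0.956), Garnl3 (0.9502), Mapk8ip3 (0.939) and LOC272681 (0.937). Among the sensors, the brighter Calm2 probe had 0.88 and ILMN_2775885 of the same gene had 0.16. Hpcal1 ILMN_2738750 had 0.41 and ILMN_2789089 had 0.14, while Ncald had 0.19, Calm3 had -0.03 and Pvalb had -0.13. With 6 points and so many probes searched, these values describe the arrays only. The other Scgn probes, with -0.18 and -0.0018, were far from the closest values.

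The relatives of these sensors were described by lists, with 1 probe per gene. Among the other neuronal calcium sensors and calcium-binding proteins related to calmodulin, 8 of 16 genes were detected, 3 with a change above 0 and 5 below it, and the median was -0.18. This median was -0.068 without 4 h replicate 1, -0.092 without 16 h replicate 2, -0.095 with 18S signal as a block and -0.29 without background correction. None passed an adjusted p of 0.05 in limma and 2 of the 8 had an unadjusted p under 0.05, beside 11.2% of the 11735 detected genes. Vsnl1, which encodes visinin-like 1, had the smallest p below 0, with 304 units at 4 h and 290 at 16 h and a change of -0.40 (SE 0.065, limma adjusted p = 0.199). All of its normalized values were lower at 4 h. Kcnip4, which encodes a potassium channel-interacting protein, had 0.16 (limma adjusted p = 0.924) and was close to noise. The retinal sensor gene Rcvrn and Cabp1, Cabp2, Cabp5, Cabp7, Caln1 and Kcnip1 were above noise on no array.

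For the S100 proteins, small paired EF-hand proteins, 5 of 14 genes with a probe were detected, 2 above 0 and 3 below, with a median of -0.05 that ranged from -0.12 to 0.046 when each array was left out in turn, above 0 without 4 h replicate 3 or 16 h replicate 3. S100a13 was bright (4442 and 3401 units) with a change of -0.09 (limma adjusted p = 0.975), and the dim S100a11 had 0.16 (limma adjusted p = 0.924). Of 23 other cytosolic EF-hand genes, 15 were detected, 5 above 0 and 10 below, with a median of -0.06 that was between -0.096 (without 4 h replicate 2) and -0.035 (without 4 h replicate 3) when each array was left out. The smallest p among the changes above 0 belonged to Tesc (0.13, limma adjusted p = 0.954) and among those below 0 to Necab2 (-0.11, limma adjusted p = 0.937). No gene of either list passed the test, and 0 of the 5 and 0 of the 15 had an unadjusted limma p under 0.05, where 11.2% of all detected genes did.

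Of 12 EF-hand genes of the secretory pathway, endoplasmic reticulum and mitochondria, 7 were detected, 3 above 0 and 4 below, with a median of -0.10 that was between -0.20 (without 16 h replicate 1) and -0.013 (without 4 h replicate 1) when each array was left out. Sdf4, a calcium-binding protein of the Golgi lumen, had 0.12 (limma adjusted p = 0.924). None passed an adjusted p of 0.05 in limma, and 1 of the 7 had an unadjusted p under 0.05, where 11.2% of all detected genes did.

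Calmodulin's effectors were widely detected, in 25 of 30 genes, with 13 above 0, 12 below and a median of 0.0096. The median was 0.018 without 16 h replicate 1, and fell below 0 without 4 h replicate 2 (-0.0091) or 16 h replicate 3 (-0.0073). None passed an adjusted p of 0.05 in limma, and 6 of the 25 had an unadjusted p under 0.05, again beside 11.2% of all detected genes. Pde1a, a cyclic nucleotide phosphodiesterase activated by calcium and calmodulin, had 699 units at 4 h and 333 at 16 h and a change of 0.47 (SE 0.072, limma adjusted p = 0.171), and Pde1b of the same family had -0.27 (limma adjusted p = 0.706). The normalized values of Pde1a were all higher at 4 h and those of Pde1b all lower. Of 7 genes for proteins reported to bind secretagogin, Snap23, Actb, Arfgap2 and Crocc were detected, with changes from -0.09 to -0.02. The probes of Snap25, a SNARE protein that secretagogin binds, and of Doc2a were above noise on no array, and that of Kif5b was above it on 1, which again does not show that these transcripts are absent. The study reports Snap25 transcript in mGLUTag cells by microarray, and secretagogin pulled down with SNAP25 from them.

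**Figure D5:**
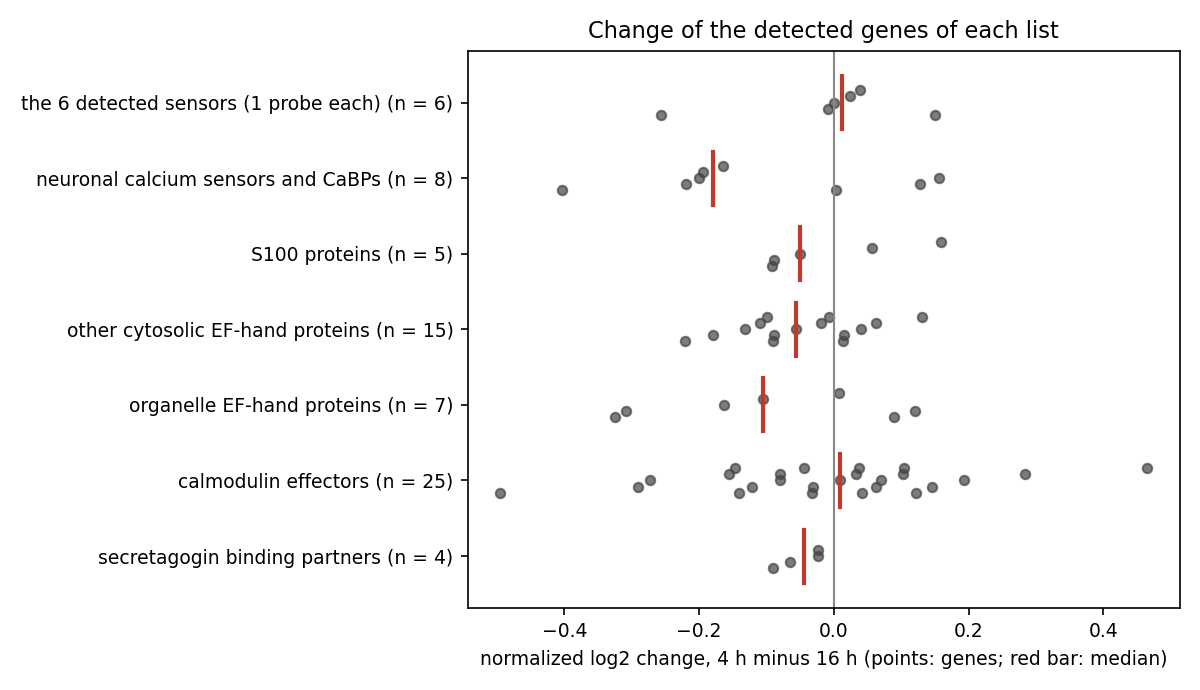
Change in normalized log2 intensity, 4 h minus 16 h, of each detected gene (points) of the 6 sensors and of 6 lists of related genes, with the median of each in red. The sensors lie between -0.26 and 0.15, and the widest spread, from -0.50 to 0.47, is among the calmodulin effectors.

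As the time points were set by a clock factor that binds E-boxes, the promoters of the sensors are shown for the letters of such boxes. RefSeq windows of build GRCm38.p6, from 250 bases before to 50 after a transcription start, were at hand for 5 of the 9 genes (Scgn, Calm3, Hpcal1, Ncs1 and Pvalb, the last with a pair of windows). They were searched on both strands for CACGTG (held by 7.15% of 32851 such windows), CATGCG (held by 6.5%), CATGTG (held by 14.2%) and CACGCG (held by 9.27%). At least 1 of these was in 31.8% of the windows. Overlapping matches were counted separately. The Scgn window, chr13:23991165-23991464 on the minus strand, held none, and Calm3 held CGCGTG, which is CACGCG on the other strand, 125 and 119 bases before the start. CATGTG was found 78 bases before the start of Ncs1 and 111 before 1 of those of Pvalb, and Hpcal1 held none. The bases upstream of the annotated transcripts are given for Scgn, the gene followed by the study, and for Calm3, the sensor with boxes in its window and a clear signal, in lower case with the boxes in capitals:
Scgn, chr13:23991328-23991464, minus strand: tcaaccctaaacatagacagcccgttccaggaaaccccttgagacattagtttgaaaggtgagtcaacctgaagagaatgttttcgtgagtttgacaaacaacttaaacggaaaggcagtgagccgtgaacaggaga
Calm3, chr7:16924033-16924282, minus strand: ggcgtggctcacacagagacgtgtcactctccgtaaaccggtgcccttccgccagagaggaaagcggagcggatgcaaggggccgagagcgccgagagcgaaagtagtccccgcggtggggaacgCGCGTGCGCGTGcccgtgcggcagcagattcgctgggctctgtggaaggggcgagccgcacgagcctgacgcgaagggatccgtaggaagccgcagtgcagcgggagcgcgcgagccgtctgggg

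A match describes the letters and is not a binding site, and the absence of one holds for this window only, as bases farther upstream were not analysed here. The study reports noncanonical E-boxes in the Scgn promoter, all at distances from the start that lie beyond this window. By chromatin immunoprecipitation in mGLUTag cells, it also reports BMAL1 binding at some of these boxes. That binding was greater at its peak times, 4 h among them, than at its trough times, 16 h among them. The changes of Calm3, with boxes in this window, 0.04, and of Scgn, with none in this window, -0.00034, both had intervals that included 0. These values do not tell whether boxes go with a change.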

How the data were processed

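Total RNA of 6 mGLUTag samples was hybridized to Illumina mouse arrays of 45281 probes. The deposited table held the authors' non-normalized intensity values, many of them below 0, as background subtraction leaves them, with no detection p-values. The scanner software was not given in the sources used here. All intensities were corrected by normexp with an offset of 50, quantile normalized and log2 transformed, and fitted in limma 3.58.1 (R 4.3.3) with time point only, p-values being adjusted by Benjamini-Hochberg over all probes at a threshold of 0.05. The offset shrinks the changes of dim probes. Exact permutation tests compared within-array differences. The fit was tested on simulated data. The members and lists were chosen with earlier results of these data known. Named were all members, the 5 probes most correlated with Scgn and, in each list, the detected gene with the smallest p in each direction, of which 1 is not reported here. Alternatives were background correction, offset, normalization, a filter, blocks and leaving out each array. Replicate numbers were not shown to pair samples: same-numbered arrays deviated with correlations of 0.25, 0.17 and -0.49. Slide and scan were not given in the sources used here.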

Additional observations from a re-analysis of the deposited data

How the results depend on the processing

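With 3 arrays per time point, changes as large as 0.52 (Arntl), 0.47 (Pde1a) and -0.40 (Vsnl1) did not pass the adjusted test. Those of Pvalb and Hpcal1 came from dim signal, and the part of this in their outcome was not tested. Under the listed symbols, the 6 detected genes remained 6 under a 95th percentile, on all 6 arrays and without any array. Ncs1, read through its older symbol, was above noise on 3 arrays and so was not detected where all 6 were required. Over all probes, 4 were called, against 29 without background correction, 0 with an offset of 16, 832 with median scaling, 2 with cyclic loess, 2308 without normalization between arrays, 0 with only detected probes tested, 0 with the replicate number as a block (2489 at an unadjusted p under 0.05) and 0 to 0 without each array in turn. With 18S signal as a block, 5 were called. The number of sensor probes called rose from 0 to 1 (Ncald, 0.56) with median scaling and to 2 (Ncald, 0.65, and Scgn ILMN_1227332) without normalization, and that of list genes from 0 to 2 (Pde1a and Snap23) and 6. In both settings the median of the probes above noise on all 6 arrays was shifted, to 0.30 and 0.39. The Scgn change turned to 0.40 with median scaling, 0.49 without normalization, 0.0024 with 18S signal as a block and 0.070 as the mean of its probes, and ranged from -0.033 to 0.027 without each array. Pvalb turned to 0.071, 0.16 and 0.041 under the first 3 of these and ranged from -0.073 to 0.033 without each array. Hpcal1 turned to 0.036 without normalization and was -0.59 without background correction, Calm3 to -0.052 with the 18S block (-0.067 to 0.14 without each array) and Calm2 to -0.021 as the mean of its probes (-0.028 to 0.093 without each array). The within-array ratio to Scgn turned for Calm2 to -0.0012 without normalization, and without each array ranged from -0.011 to 0.066 for Calm2, -0.088 to 0.16 for Calm3 -0.062 to 0.066 for Pvalb, -0.40 to -0.16 for Hpcal1 and 0.091 to 0.22 for Ncald. Without normalization it was -0.33 for Pvalb and -0.45 for Hpcal1, both at the smallest exact p of 0.1. All 6 list medians were above 0 with median scaling (0.047 to 0.33) and without normalization (0.14 to 0.42). For these the cause was not tested. Ncald stayed above 0 under all 15 settings, from 0.10 to 0.65, but these are not 15 separate checks. The filter, the replicate block and the mean of its probes could not move its estimate, which stayed at 0.15. With median scaling and without normalization its change includes the shared shift. The replicate block changed no call among the sensors.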
